A study of Mus musculus with 39 samples.

Results

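The 28 genes described here carry out or control the synthesis, intracellular transfer, storage and efflux of cholesterol. They were chosen as a list of named genes, with earlier results of these data known. Counts of called genes set beside the share of all genes are therefore a description and not a test of the list. All 28 had a row among the 11873 genes of a liver RNA-seq count table, and 27 of them passed the filter on low counts that left 9483 genes for testing. The list holds no lipoprotein receptor, so uptake was read from a second list of sterol genes given near the end. The livers came from C57BL/6 mice of 3 to 5 months in 3 genotypes. HLKO mice were Alb-Cre+ Hif1afl/fl, BLKO mice were Alb-Cre+ Bmal1fl/fl, and Alb mice carried Alb-Cre alone, so that every group carried the Cre driven by the albumin promoter, which is active in hepatocytes and leaves the other cells of the liver with intact alleles. Hif1a encodes the oxygen-regulated subunit of the transcription factor HIF-1, and Bmal1 (Arntl) encodes a core activator of the circadian clock. The mice were kept for 2 weeks in 12 h of light and 12 h of dark, lights stayed off on the day of the experiment, and food was freely available. They then breathed 6% oxygen (hypoxia) or 21% oxygen (normoxia) for 4 h beginning at circadian time (CT) 16 or at CT4. Each of the 12 combinations of genotype, time and oxygen had 3 libraries, here named A, B and C, making 36 in all, and 3 samples of a double knockout were not analysed here. The sources do not say that the 3 libraries of a group came from separate mice, so that p-values measure the spread between libraries, which may be technical.

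Hepatocytes build cholesterol from acetyl-CoA through mevalonate, squalene and lanosterol, and most genes of this route are activated by the transcription factor SREBP2 (Srebf2). SCAP escorts SREBP2 out of the endoplasmic reticulum for cleavage when sterols are low, and the membrane proteins INSIG1 and INSIG2 hold SCAP back when sterols are high. The oxidative steps after squalene use molecular oxygen. Surplus sterol leaves the hepatocyte for bile through a transporter made of ABCG5 and ABCG8, leaves for plasma lipoproteins through ABCA1, or is esterified for storage by SOAT2, and the nuclear receptor LXR alpha (Nr1h3) activates the efflux genes.

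The promoters of 5 genes on which the results turn are printed first, as 300 bases from 250 before to 50 after the RefSeq start site (GRCm38.p6), 5′ to 3′ on the strand of the gene. They stand for the efflux pair, both INSIG genes, the synthase Hmgcs1 and the decarboxylase Mvd. The windows are chr17:84682962-84683261 (minus strand) for Abcg5, chr5:28071162-28071461 (plus strand) for Insig1, chr1:121332540-121332839 (minus strand) for Insig2, chr13:119690101-119690400 (plus strand) for Hmgcs1 and chr8:122443373-122443672 (minus strand) for Mvd. Insig2 has 3 windows in RefSeq and the first is shown. Capitals mark matches on either strand to a sterol regulatory element (SRE, TCACNCCAC), the NF-Y box (CCAAT), an E-box (CACGTG) or the core of a hypoxia response element (ACGTG, which every E-box of this kind contains).
Abcg5: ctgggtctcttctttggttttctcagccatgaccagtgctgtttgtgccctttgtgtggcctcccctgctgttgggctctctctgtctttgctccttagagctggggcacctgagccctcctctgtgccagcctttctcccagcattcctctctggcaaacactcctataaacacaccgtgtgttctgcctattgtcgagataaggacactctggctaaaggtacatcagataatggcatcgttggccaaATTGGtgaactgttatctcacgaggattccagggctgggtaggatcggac
Insig1: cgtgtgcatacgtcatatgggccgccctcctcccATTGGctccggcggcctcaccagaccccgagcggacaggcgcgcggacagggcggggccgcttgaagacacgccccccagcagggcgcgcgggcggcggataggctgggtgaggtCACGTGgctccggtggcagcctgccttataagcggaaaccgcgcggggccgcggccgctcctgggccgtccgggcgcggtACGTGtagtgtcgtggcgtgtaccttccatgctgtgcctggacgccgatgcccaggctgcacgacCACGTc
Insig2: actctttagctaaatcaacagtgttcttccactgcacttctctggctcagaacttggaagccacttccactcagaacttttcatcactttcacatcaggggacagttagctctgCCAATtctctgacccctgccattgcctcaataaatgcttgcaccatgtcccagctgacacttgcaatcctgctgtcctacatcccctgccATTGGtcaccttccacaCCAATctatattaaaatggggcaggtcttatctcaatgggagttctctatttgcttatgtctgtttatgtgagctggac
Hmgcs1: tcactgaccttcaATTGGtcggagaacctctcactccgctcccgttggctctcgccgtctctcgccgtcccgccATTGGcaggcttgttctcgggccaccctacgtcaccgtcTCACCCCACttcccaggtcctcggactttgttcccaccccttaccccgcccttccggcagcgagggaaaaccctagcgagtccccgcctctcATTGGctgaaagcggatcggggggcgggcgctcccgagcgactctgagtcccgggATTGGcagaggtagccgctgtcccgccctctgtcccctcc
Mvd: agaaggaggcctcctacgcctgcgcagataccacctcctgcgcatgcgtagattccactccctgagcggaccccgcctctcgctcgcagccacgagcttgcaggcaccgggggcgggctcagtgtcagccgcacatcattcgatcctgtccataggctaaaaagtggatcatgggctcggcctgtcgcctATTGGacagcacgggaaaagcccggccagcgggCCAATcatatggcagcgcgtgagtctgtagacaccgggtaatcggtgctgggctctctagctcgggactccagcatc

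The Abcg5 window also holds the start of Abcg8, since the RefSeq start of Abcg5 and the first of 2 of Abcg8 lie 109 bases apart on opposite strands of chromosome 17 (84683011 for Abcg5 and 84683121 for Abcg8). In these windows the SRE matched in Hmgcs1 only, starting at base -137 from the start site, and the NF-Y box matched in all 5. Insig1 was the one of the 5 with an E-box, at base -101, and it held further ACGTG matches at bases -21 and 45. Of the 28 genes 23 had at least 1 window, and 19 of those, or 82.6%, held an NF-Y box in any of them, against 41.1% of all 27025 genes with a window. The SRE was in 1 of 23 (4.35%, against 1.44% of all genes), the E-box in 6 of 23 (26.1%, against 8.09%) and ACGTG in the same 6 (26.1%, against 21.8%). These letters are a description of the windows and not evidence of binding.

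Library totals ran from 1717589 to 5196957 counts. Levels below are counts per 1000000 (CPM) on normalised library sizes, and log2 fold changes, such as 6% over 21% oxygen, are given ± their standard error (SE). A gene was called when its adjusted p from edgeR's quasi-likelihood test was under 0.05, with adjustment over all 9483 genes. Library A of Alb CT4 21% and library A of Alb CT16 6% stood apart from their groups: their counts differed from those of the other 2 libraries by 19.7 to 28.1 chi-square units per degree of freedom, against 5.33 and 3.92 between those others, and values without them are given where a call ended. All 7 hepatocyte markers on a fixed list were in the table and summed to 54770.0 to 99880.0 CPM in every library. Hif1a had 0 to 9.57 CPM in HLKO and 1.89 to 15.03 CPM in Alb libraries and was called lower in HLKO in 1 of 4 settings (CT16 6%, log2 fold change -1.78 ± 0.51, adjusted p = 0.0248). It was not called at CT16 21% (-0.03 ± 0.46), CT4 6% (0.94 ± 0.46, higher in HLKO) or CT4 21% (-0.61 ± 0.45). Arntl had 6.07 to 14.5 CPM in BLKO and 2.44 to 22.1 CPM in Alb libraries and was called in 0 of 4 settings. Its log2 fold changes were -0.42 at 6% and -0.75 at 21% at CT16, and 0.54 at 6% and 0.52 at 21% at CT4. Counts of a whole gene include exons outside a deleted one, so they do not check the deletions.

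Per kilobase of annotated exon, the most abundant genes over all libraries were Ebp, a sterol isomerase (212 CPM per kb), Fdps, which makes farnesyl diphosphate (175 CPM per kb), and Hmgcs1, which makes HMG-CoA (125 CPM per kb). The lowest of the 27 tested were Lss, the lanosterol synthase (0.915 CPM per kb), Abca1 (1.46 CPM per kb), the isomerase Idi1 (1.54 CPM per kb) and Srebf2 (1.82 CPM per kb). The length joined all annotated exons of a gene and was longest for Lss (10787 bases). Without division by length, Lss (9.87 CPM) was above Idi1 (5.40 CPM). Fdft1, the squalene synthase, had 0 to 5 counts per library, with 11 libraries at 0, and was not tested. It overlaps Ctsb on the other strand in GENCODE, and Abcg5 overlaps Abcg8 in the same way. The spans of Hmgcs1, Mvd, Idi1, Lss, Cyp51, Insig2, Scap and Nr1h3 also overlap an annotated gene on the other strand. Those of Fdps, Tm7sf2, Srebf2 and Nr1h3 overlap annotated genes on their own strand. Whether the counting used strand is not given in the sources used here, so reads from such shared stretches cannot be assigned.

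Hypoxia raised the efflux pair in every genotype. Abcg5 was called higher at 6% than at 21% oxygen in 6 of 6 settings of genotype and time, with log2 fold changes of 0.65 to 1.16, and Abcg8 in 4 of 6, with 0.30 to 1.13 over all 6. In HLKO livers at CT16 Abcg5 had 79.4, 115 and 61.9 CPM at 6%, against 54.3, 59.4 and 50.3 CPM at 21%. At CT4 it had 113, 109 and 88.1 CPM at 6% and 52.2, 51.0 and 62.3 CPM at 21% in the same genotype. Both pairs of groups were apart, with the smaller gap at CT16, where 6% C lay just above 21% B. BLKO livers had 90.4, 99.1 and 115 CPM at 6%, against 74.0, 50.4 and 51.4 CPM at 21%, at CT16. At CT4 BLKO livers had 123, 116 and 135 CPM at 6% and 69.1, 57.2 and 59.6 CPM at 21%. These groups did not overlap either, and BLKO CT4 6% had the highest group mean of Abcg5, 125 ± 9.60 CPM (SD, n = 3). Alb livers had 85.1, 76.5 and 68.2 CPM at 6%, against 35.0, 46.0 and 23.7 CPM at 21%, at CT16. At CT4 Alb livers had 68.8, 93.2 and 114 CPM at 6% and 44.8, 46.3 and 45.4 CPM at 21%. Each 6% library of Alb was therefore above each 21% library of its time. In whole liver, fewer cells of a type and less RNA per cell cannot be told apart.

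The Abcg5 difference was 0.65 ± 0.20, adjusted p = 0.0380 in HLKO at CT16 and 0.91 ± 0.20, adjusted p = 0.00164 in HLKO at CT4. In BLKO it was 0.78 ± 0.19, adjusted p = 0.00804 at CT16 and 1.01 ± 0.20, adjusted p = 0.00140 at CT4. In Alb it was 1.16 ± 0.21, adjusted p = 1.58e-04 at CT16 and 1.03 ± 0.20, adjusted p = 8.27e-04 at CT4. The call of HLKO at CT16 ended without 21% A, 21% B, 21% C, 6% A or 6% B, adjusted p = 0.0585 to 0.290, and with the compared groups fitted alone, 0.0896. That of BLKO at CT16 ended without 21% B, 21% C or 6% C, adjusted p = 0.0523 to 0.0566. The other 4 held under every alternative run.

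Abcg8, the partner of ABCG5 in the transporter, had 171, 157 and 176 CPM at 6%, against 78.5, 70.3 and 81.4 CPM at 21%, in BLKO livers at CT4 (1.13 ± 0.18, adjusted p = 1.56e-04). In HLKO livers at CT4 it had 124, 132 and 137 CPM at 6% and 64.6, 78.3 and 82.5 CPM at 21% (0.80 ± 0.18, adjusted p = 0.00258). In Alb livers at CT16 it had 71.5, 64.1 and 78.0 CPM at 6% and 27.8, 44.5 and 28.3 CPM at 21% (1.10 ± 0.19, adjusted p = 1.37e-04). No libraries overlapped in these 3 pairs of groups. Alb CT4 had 69.3, 121 and 132 CPM at 6% and 71.6, 62.1 and 75.3 CPM at 21%, with 6% A within the 21% range (0.63 ± 0.18, adjusted p = 0.0236), and the call there ended without 21% A, 21% B, 6% B or 6% C, adjusted p = 0.0575 to 0.176, and with the compared groups fitted alone, 0.141. At CT16 Abcg8 had 83.2, 86.0 and 72.4 CPM at 6% and 58.5, 74.3 and 63.2 CPM at 21% in HLKO livers, which overlapped and did not pass (0.30 ± 0.19, adjusted p = 0.348). BLKO livers at CT16 had 98.6, 111 and 119 CPM at 6% and 103, 66.0 and 64.4 CPM at 21%, overlapping through 21% A (0.49 ± 0.18, adjusted p = 0.0849). Abca1, the exporter to plasma lipoproteins, was called in 0 of 6 hypoxia comparisons, with log2 fold changes of 0.11 to 1.27 and a lowest adjusted p of 0.0868. Nr1h3 was called in 0 of 6 as well (-0.31 to 0.21).

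**Figure D1:**
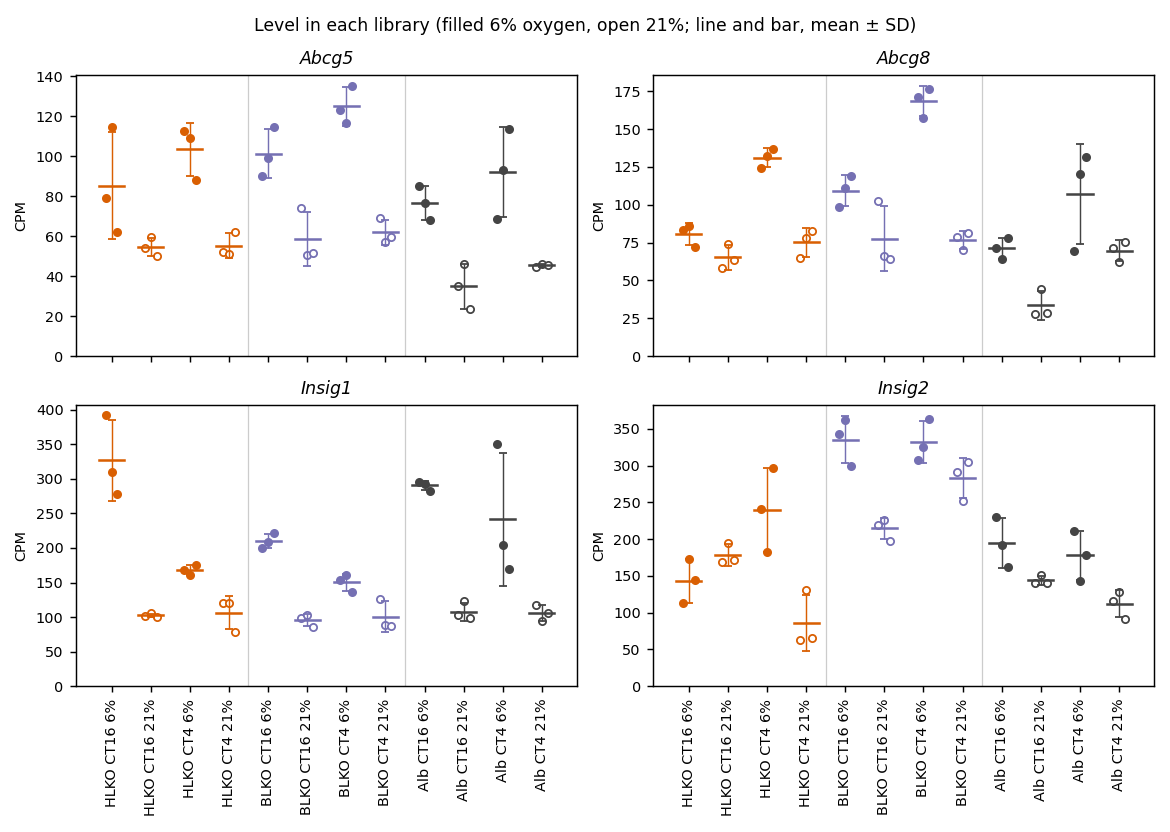
CPM of Abcg5, Abcg8, Insig1 and Insig2 (y axes) in each of the 12 groups (x axis), with 1 point per library, filled for 6% and open for 21% oxygen, and the mean ± SD of 3 libraries as line and bar. All 3 filled points of Abcg5 and of Insig1 lie above the 3 open points in each of the 6 settings, while Insig2 at HLKO CT16 has its filled points lower or among the open ones.

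Insig1 was raised by hypoxia in every genotype as well. It was called higher under hypoxia in 5 of 6 settings. HLKO livers at CT16 had 392, 310.1 and 278 CPM at 6%, against 101, 105 and 100.3 CPM at 21% (1.67 ± 0.19, adjusted p = 2.21e-07). HLKO livers at CT4 had 167, 160.4 and 175 CPM at 6% and 120.2, 120.1 and 78.5 CPM at 21% (0.66 ± 0.18, adjusted p = 0.0128). Each 6% library of CT16 was above each 6% library of CT4, while the 21% libraries of CT16 lay within the range of those of CT4. BLKO livers at CT16 had 200.05, 209 and 221 CPM at 6% and 99.0, 102 and 85.2 CPM at 21% (1.13 ± 0.18, adjusted p = 8.09e-05). Alb livers at CT16 had 296, 293 and 283 CPM at 6% and 103, 123 and 98.0 CPM at 21% (1.43 ± 0.18, adjusted p = 1.13e-06). At CT4 Alb livers had 350.3, 204 and 169 CPM at 6% and 117, 94.7 and 106 CPM at 21% (1.18 ± 0.18, adjusted p = 3.83e-05). No libraries overlapped in any of these pairs. BLKO livers at CT4 had 154, 160.3 and 137 CPM at 6% and 126, 88.7 and 87.1 CPM at 21%, again apart but not called (0.58 ± 0.19, adjusted p = 0.0654). The call of HLKO at CT4 ended without 21% C, the lowest library (adjusted p = 0.128).

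Insig2 rose in 3 of 6 settings, 1 in each genotype. HLKO livers at CT4 had 241, 182 and 296 CPM at 6%, against 63.2, 131 and 66.0 CPM at 21% (1.46 ± 0.20, adjusted p = 3.84e-06). HLKO livers at CT16 had 113, 173 and 144 CPM at 6% and 169, 195 and 172 CPM at 21%, a difference in the opposite direction that did not pass (-0.31 ± 0.20, adjusted p = 0.359). The groups were apart at CT4 and overlapped at CT16. BLKO livers at CT16 had 344, 362 and 300.1 CPM at 6% and 219.9, 226 and 198 CPM at 21% (0.64 ± 0.19, adjusted p = 0.0309). At CT4 BLKO livers had 307, 326 and 363 CPM at 6% and 292, 253 and 305 CPM at 21% (0.23 ± 0.20, adjusted p = 0.636). Only the CT16 pair of BLKO passed, and its call ended without 21% A, 21% B, 21% C, 6% A or 6% B, adjusted p = 0.0658 to 0.112. Alb livers at CT4 had 211, 144 and 179 CPM at 6% and 115, 129 and 92.0 CPM at 21% (0.67 ± 0.20, adjusted p = 0.0304). Alb livers at CT16 had 229.8, 192 and 162 CPM at 6% and 141, 151 and 140.4 CPM at 21% (0.44 ± 0.20, adjusted p = 0.147). Neither pair of Alb groups overlapped, the CT4 pair alone passed, and its call ended without 21% A, 21% C, 6% A or 6% C, adjusted p = 0.0696 to 0.152, and with the compared groups fitted alone, 0.0645. Scap was called in 0 of 6 hypoxia comparisons (-0.02 to 0.31).

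Under hypoxia in Alb livers at CT4 4 of 27 genes were called higher, against 5.28% of all genes, and 0 lower, against 3.88% (median log2 fold change 0.25, against 0.01 over all genes). Calls numbered 2 without 6% C and with the compared groups fitted alone. The 4 were Insig1, Abcg5, Insig2 and Abcg8, with no enzyme of synthesis among them. Among markers of cell types in the same comparison, 5 of 8 Kupffer cell markers were called (C1qb, Cd5l, Csf1r, Clec4f and C1qa higher), with sums of 296 to 547 CPM at 6% and 157 to 271 CPM at 21%. 3 of 8 endothelial markers were called (Dnase1l3, Kdr and Stab2 higher), with sums of 185 to 205 CPM at 6% and 111 to 138 CPM at 21%, and their part was not tested. In BLKO livers at CT4 2 of 27 genes were called higher, against 2.57% of all genes, and 0 lower, against 2.06%, the 2 being Abcg5 and Abcg8 (median log2 fold change 0.11, against 0.01 over all genes). For BLKO at CT4, 1 of 7 hepatocyte markers was called (Hnf4a lower), with sums of 57740.0 to 60640.0 CPM at 6% and 55680.0 to 64070.0 CPM at 21%. Endothelial marker sums were 179 to 196 CPM at 6% and 141 to 162 CPM at 21%, with 0 of 8 called, and their part was not tested.

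In Alb livers at CT16 enzymes of synthesis were among the genes that rose. There 9 of 27 genes were called higher, against 6.72% of all genes, and 0 lower, against 6.76%, and the libraries of 15 of 27 were all higher at 6% than at 21%, against 14.9% of all genes. The median log2 fold change was 0.51, against 0.01 over all genes. The calls numbered 5 without 21% B or 6% B. Beside Insig1, Abcg5 and Abcg8 the called genes were the following. Mvd, which makes isopentenyl diphosphate, had 49.98, 36.2 and 29.6 CPM at 6%, against 19.6, 19.5 and 11.9 CPM at 21% (1.23 ± 0.34, adjusted p = 0.0133). Srebf2 had 6.30, 15.2 and 14.2 CPM at 6% and 5.84, 7.11 and 6.15 CPM at 21% (0.85 ± 0.27, adjusted p = 0.0334). Mvd libraries did not overlap, whereas 6% A of Srebf2 lay within the 21% range. Nsdhl, a sterol dehydrogenase of the demethylation steps, differed by 0.80 ± 0.22, adjusted p = 0.0121. Dhcr7, which catalyses the last reduction, Hsd17b7, a sterol ketone reductase, and Soat2 were called with 0.78 ± 0.21, adjusted p = 0.0106, with 0.77 ± 0.25, adjusted p = 0.0341 and with 0.63 ± 0.20, adjusted p = 0.0284. The calls of Insig1, Abcg5 and Abcg8 held without each library in turn. Those that ended without 1 library were Dhcr7 (without 21% B or 6% B, adjusted p = 0.0514 to 0.0528), Hsd17b7 (without 21% A, 21% B, 6% A or 6% B, adjusted p = 0.0589 to 0.135), Mvd (without 21% C or 6% A, adjusted p = 0.0792 to 0.105), Nsdhl (without 21% B or 6% A, adjusted p = 0.0749 to 0.0818), Soat2 (without 21% A, 21% C, 6% B or 6% C, adjusted p = 0.0910 to 0.139, and with the compared groups fitted alone, 0.0725) and Srebf2 (without 21% A, 21% B, 21% C, 6% B or 6% C, adjusted p = 0.0517 to 0.190, and with the compared groups fitted alone, 0.145). Of the cell type markers, 1 of 8 Kupffer cell markers was called (C1qb higher), with sums of 159 to 376 CPM at 6% and 129.9 to 217 CPM at 21%. Bile duct marker sums were 56.5 to 96.3 CPM at 6% and 46.4 to 54.3 CPM at 21%, with 0 of 3 called. The 1 tested neutrophil marker was called (S100a9 higher), with sums of 0.813 to 6.55 CPM at 6% and 0.228 to 0.749 CPM at 21%, and their part was not tested. Neutrophil sums were also apart in HLKO at CT16 (1.68 to 8.82 CPM at 6% and 0.914 to 1.66 CPM at 21%). The same held for HLKO at CT4 (4.00 to 6.59 and 1.90 to 3.35 CPM) and BLKO at CT16 (2.21 to 4.40 and 0.289 to 1.45 CPM). These sums overlapped in Alb and BLKO livers at CT4, and their part was not tested there either.

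Under hypoxia in BLKO livers at CT16 5 of 27 genes were called higher, against 4.77% of all genes, and 0 lower, against 4.63% (median log2 fold change 0.33, against 0.01 over all genes). With some libraries or settings changed, the count was 2 without 21% B, 21% C or 6% B and 3 without 21% A or 6% A. Beside Insig1, Abcg5 and Insig2 they were Hsd17b7, which averaged 74.8 ± 28.5 CPM at 6% and 43.3 ± 7.38 CPM at 21% (SD, n = 3; 0.80 ± 0.24, adjusted p = 0.0277), and Lss, which averaged 16.3 ± 6.85 CPM at 6% and 9.90 ± 1.97 CPM at 21% (0.77 ± 0.24, adjusted p = 0.0347). Both calls ended without 1 library, for Hsd17b7 (without 21% A, 21% B or 6% B, adjusted p = 0.0510 to 0.313) and Lss (without 21% A, 21% C, 6% A or 6% B, adjusted p = 0.0688 to 0.334, and by DESeq2, 0.0700, and with the compared groups fitted alone, 0.122). Of the cell type markers, 1 of 7 hepatocyte markers was called (Alb lower), with sums of 54770.0 to 58810.0 CPM at 6% and 67170.0 to 69370.0 CPM at 21%. Red cell marker sums were 94.5 to 133 CPM at 6% and 141 to 188 CPM at 21%, with 0 of 1 called, and their part was not tested.

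In HLKO livers Mvd and Stard4 rose under hypoxia at CT16, and Msmo1 rose and Fdps fell at CT4. At CT16 4 of 27 genes were called higher, against 5.4% of all genes, and 0 lower, against 4.34% (median log2 fold change 0.22, against -0.02 over all genes). Mvd had 68.7, 27.3 and 50.1 CPM at 6%, against 9.54, 10.1 and 6.98 CPM at 21% (2.41 ± 0.38, adjusted p = 6.76e-05), the highest hypoxia fold change of any of the 27 genes. Stard4, a cytosolic sterol carrier, had 62.4, 51.5 and 52.2 CPM at 6% and 35.7, 33.2 and 28.7 CPM at 21% (0.76 ± 0.17, adjusted p = 0.00284). Neither gene's libraries overlapped, and both calls held without each library in turn, as did that of Insig1. At CT4 5 of 27 genes were called higher, against 7.71% of all genes, and 1 lower, against 6.72% (median log2 fold change 0.17, against 0.03 over all genes). The count was 10 with the compared groups fitted alone. Beside Insig2, Abcg5, Abcg8 and Insig1, Msmo1, a methylsterol oxidase, had 61.6, 62.8 and 51.3 CPM at 6% and 33.5, 21.5 and 26.1 CPM at 21% (1.14 ± 0.34, adjusted p = 0.0200). Fdps was the gene that fell, with 379, 354 and 342 CPM at 6% and 638, 496 and 532 CPM at 21% (-0.63 ± 0.19, adjusted p = 0.0190). The libraries of both genes were apart, but the calls ended for Fdps (without 21% A, 6% B or 6% C, adjusted p = 0.0539 to 0.0881) and Msmo1 (without 21% B, 21% C, 6% A or 6% B, adjusted p = 0.0583 to 0.0967). For HLKO at CT16, 1 of 7 hepatocyte markers was called (Hnf4a lower), with sums of 91790.0 to 95920.0 CPM at 6% and 90480.0 to 98270.0 CPM at 21%. Stellate cell and fibroblast marker sums were 247 to 277 CPM at 6% and 296 to 338 CPM at 21%, with 0 of 6 called. 1 of 3 bile duct markers was called (Krt19 higher), with sums of 33.4 to 65.5 CPM at 6% and 39.0 to 58.2 CPM at 21%, and their part was not tested. For HLKO at CT4, 2 of 7 hepatocyte markers were called (Tdo2 higher and Apoa1 lower), with sums of 68120.0 to 85860.0 CPM at 6% and 74730.0 to 85220.0 CPM at 21%. 1 of 8 endothelial markers was called (Dnase1l3 higher), with sums of 116 to 185 CPM at 6% and 118 to 130.2 CPM at 21%. Bile duct marker sums were 46.5 to 54.1 CPM at 6% and 35.0 to 40.9 CPM at 21%, with 0 of 3 called, and their part was not tested.

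**Figure D2:**
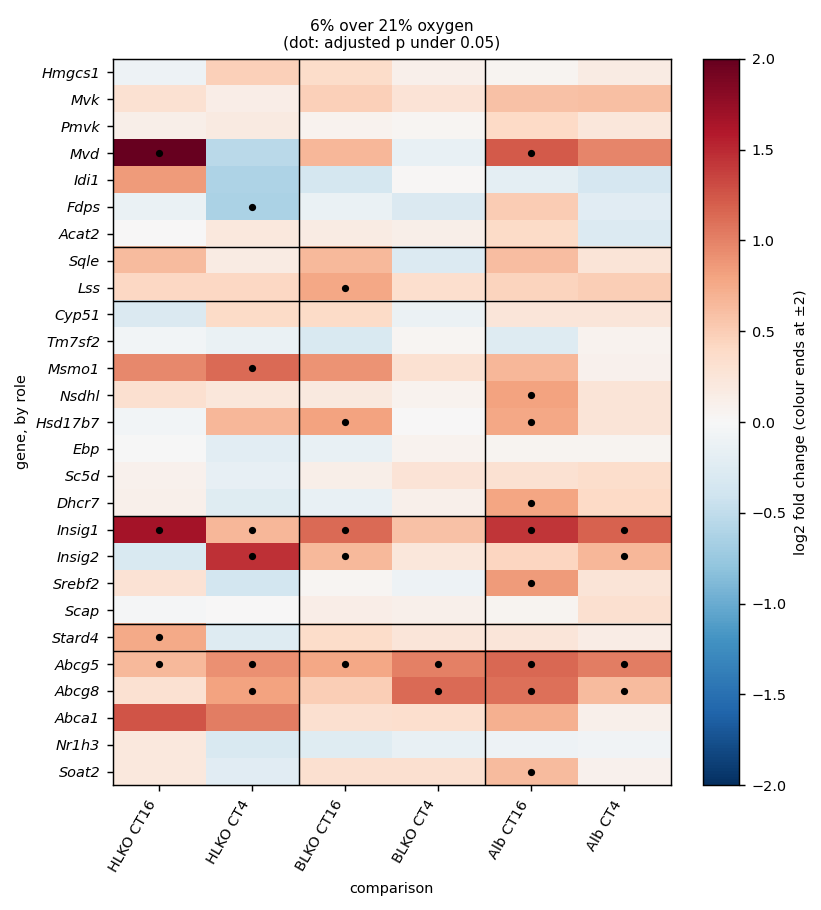
Log2 fold change of 6% over 21% oxygen (colour, ending at ±2) for the 27 tested genes by role (rows) in the 6 settings of genotype and time (columns), with a dot where the gene was called. The Abcg5 row has 6 dots and the Insig1 row 5, and the 1 dot on a gene lower at 6% oxygen is that of Fdps in HLKO at CT4.

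Whether hypoxia acted differently at CT16 than at CT4 was tested as the difference of the 2 log2 fold changes, CT16 minus CT4. In HLKO livers 4 of 27 genes had a called positive difference, against 3.81% of all genes, and 1 a negative one, against 4.83%. Mvd differed by 2.95 ± 0.51, adjusted p = 3.11e-04, from hypoxia fold changes of 2.41 ± 0.38 at CT16 and -0.54 ± 0.34 at CT4. Insig2 differed the other way, by -1.77 ± 0.28, adjusted p = 1.42e-04, from -0.31 ± 0.20 at CT16 and 1.46 ± 0.20 at CT4. Insig1 differed by 1.01 ± 0.26, adjusted p = 0.0127, with a positive fold change at both times. Stard4 differed by 1.02 ± 0.23, adjusted p = 0.00388, from 0.76 ± 0.17 at CT16 and -0.26 ± 0.15 at CT4. These 4 calls held without each of the 12 libraries in turn. Nr1h3 differed by 0.52 ± 0.17, adjusted p = 0.0474, and its call ended without CT4 21% A, CT4 21% B, CT4 21% C, CT4 6% A, CT4 6% C, CT16 21% A, CT16 21% B, CT16 6% A or CT16 6% C, adjusted p = 0.0517 to 0.141, and with no low-count filter, 0.0525, and with the compared groups fitted alone, 0.0767. The 4 Mvd groups had 68.7, 27.3 and 50.1 CPM at CT16 6%, 9.54, 10.1 and 6.98 CPM at CT16 21%, 18.3, 23.9 and 24.4 CPM at CT4 6% and 35.0, 27.6 and 34.0 CPM at CT4 21%. The lowest 3 values were those of CT16 21%. The single red cell marker in the table, Alas2, moved with time in HLKO too, with 225 to 288 CPM at CT16 6% and 70.4 to 316 CPM at CT16 21%, against 48.9 to 97.3 CPM at CT4 6% and 64.0 to 69.6 CPM at CT4 21%, and its part was not tested.

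In Alb livers 0 of 27 genes were called for a difference of the hypoxia response between the times by edgeR and 0 by DESeq2, and 1 had an unadjusted p under 0.05. In BLKO livers 0 were called by either tool, and 4 had an unadjusted p under 0.05. Among all genes 0.232% were called in Alb and 0.833% in BLKO. Nor did edgeR call any of the 27 genes for a hypoxia response that differed between HLKO and Alb or between BLKO and Alb. The numbers at an unadjusted p under 0.05 were 7 for HLKO at CT16, 4 for HLKO at CT4, 4 for BLKO at CT16 and 2 for BLKO at CT4. DESeq2 called 1 of these, Mvd in HLKO at CT4, and 0 in the other 3. For HLKO at CT4 the calls numbered 1 without Alb 21% A or HLKO 21% B and by DESeq2. The shares of all genes called by edgeR were 0.875%, 1.58%, 0.116% and 0.19% in the same order. A hypoxia call in one genotype and none in another is therefore not shown to be a difference between genotypes.

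**Figure D3:**
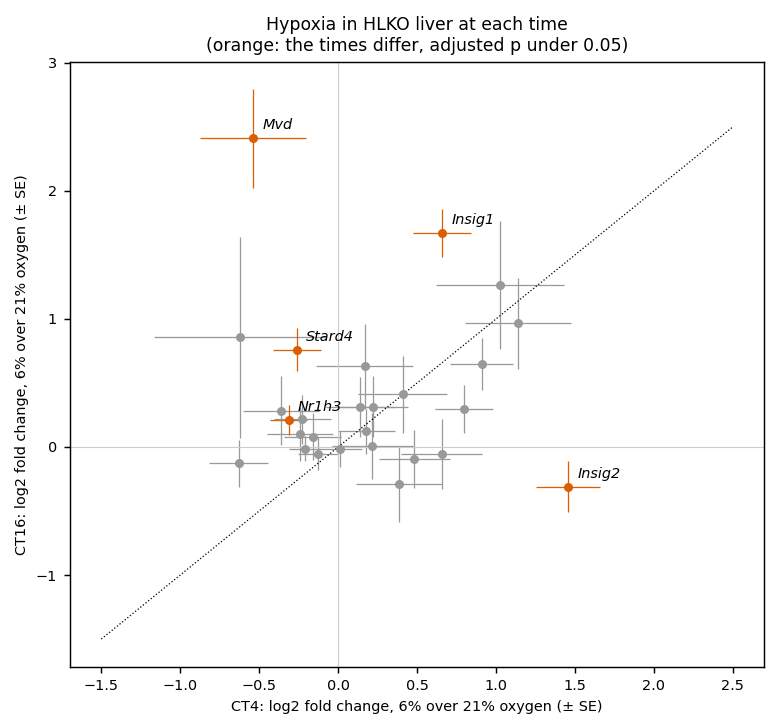
Log2 fold change of 6% over 21% oxygen in HLKO livers at CT16 (y axis) against CT4 (x axis), with SE as bars and 1 point for each of the 27 tested genes. Named orange points are the 5 genes called for a difference between the times, with Mvd, Insig1, Stard4 and Nr1h3 above the dotted line of equal response and Insig2 below it.

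The comparison of HLKO with Alb livers asked what loss of hepatocyte Hif1a does at each time and oxygen level. Counted over the 108 tests of the 27 genes in the 4 settings, 17 were called lower in HLKO, against 3.66% of the 37932 tests of all genes, and 2 higher, against 3.0%. The lower calls were on enzymes of synthesis except for that of the sterol carrier Stard4, and the 2 higher ones, Abcg8 and Soat2, belonged to efflux and storage. Hmgcs1, which commits acetyl units to the mevalonate route, was the 1 gene called in all 4. It had 244, 246 and 212 CPM in HLKO livers, against 667, 383 and 374 CPM in Alb livers, at CT16 and 6%. At CT16 and 21% it had 240.2, 233 and 276 CPM in HLKO and 441, 431 and 501 CPM in Alb livers. The groups did not overlap at either oxygen level, and Alb CT16 6% A, one of the libraries that stood apart, was the highest of the 12. At CT4 and 6% HLKO livers had 399, 520.4 and 446 CPM, against 648, 870.4 and 1306 CPM in Alb livers. At CT4 and 21% HLKO livers had 333, 301 and 343 CPM, against 831, 706 and 997 CPM in Alb livers. Again each HLKO library was below each Alb library of its setting. The log2 fold changes were -1.02 ± 0.23, adjusted p = 0.00501 at CT16 and 6%, -0.88 ± 0.23, adjusted p = 0.0261 at CT16 and 21%, -1.05 ± 0.23, adjusted p = 0.00546 at CT4 and 6%, and -1.37 ± 0.23, adjusted p = 2.72e-04 at CT4 and 21%. The last held without each library in turn. At CT16 and 6% the call ended without Alb A, adjusted p = 0.0820, and with the compared groups fitted alone, 0.0569. At CT16 and 21% it ended without Alb A, Alb C, HLKO A, HLKO B or HLKO C, adjusted p = 0.0602 to 0.104. At CT4 and 6% it ended without Alb C, adjusted p = 0.0980.

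At CT4 and 21% in HLKO against Alb livers 0 of 27 genes were called higher, against 4.1% of all genes, and 4 lower, against 5.61% (median log2 fold change -0.11, against -0.0015 over all genes). Msmo1 had 33.5, 21.5 and 26.1 CPM in HLKO livers, against 129.9, 65.5 and 53.9 CPM in Alb livers (-1.63 ± 0.34, adjusted p = 0.00322). Acat2, the thiolase that opens the route, averaged 26.2 ± 2.89 CPM in HLKO and 55.1 ± 3.05 CPM in Alb livers (SD, n = 3 each; -1.08 ± 0.25, adjusted p = 0.00778). Pmvk, the phosphomevalonate kinase, averaged 67.2 ± 10.8 CPM in HLKO and 109.5 ± 10.8 CPM in Alb livers (-0.71 ± 0.18, adjusted p = 0.0124). None of the 3 overlapped between the genotypes, and only the call of Pmvk ended, without HLKO C, adjusted p = 0.0767. In this setting, 3 of 7 hepatocyte markers were called (Apoa1 and Hnf4a higher and Tdo2 lower), with sums of 74730.0 to 85220.0 CPM in HLKO and 60960.0 to 78200.0 CPM in Alb livers. Bile duct marker sums were 35.0 to 40.9 CPM in HLKO and 52.1 to 74.1 CPM in Alb livers, with 0 of 3 called. The 1 tested red cell marker was called (Alas2 lower), with sums of 64.0 to 69.6 CPM in HLKO and 165 to 219 CPM in Alb livers, and their part was not tested.

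At CT4 and 6% in HLKO against Alb livers 0 of 27 genes were called higher, against 1.67% of all genes, and 5 lower, against 1.83% (median log2 fold change -0.52, against 0.01 over all genes). This count became 3 without Alb C or HLKO C. Beside Hmgcs1, Fdps had 379, 354 and 342 CPM in HLKO livers, against 778, 561 and 707 CPM in Alb livers (-0.93 ± 0.19, adjusted p = 0.00275). Sc5d, a sterol desaturase, averaged 305 ± 50.04 CPM in HLKO and 574 ± 156 CPM in Alb livers (-0.91 ± 0.18, adjusted p = 0.00258). Both genes' libraries were apart and both calls held without each library in turn. Mvd averaged 22.2 ± 3.39 CPM in HLKO and 51.2 ± 16.99 CPM in Alb livers (-1.20 ± 0.32, adjusted p = 0.0330), and Pmvk averaged 75.1 ± 16.4 CPM in HLKO and 127 ± 29.8 CPM in Alb livers (-0.75 ± 0.18, adjusted p = 0.0101). The calls of the last 2 ended for Mvd (without Alb A, Alb C, HLKO A, HLKO B or HLKO C, adjusted p = 0.0529 to 0.176) and Pmvk (without Alb C or HLKO C, adjusted p = 0.0897 to 0.140, and with the compared groups fitted alone, 0.0926). In the same setting, 4 of 8 Kupffer cell markers were called (Cd5l, Csf1r, C1qb and C1qa lower), with sums of 205 to 248 CPM in HLKO and 296 to 547 CPM in Alb livers. Endothelial marker sums were 116 to 185 CPM in HLKO and 185 to 205 CPM in Alb livers, with 0 of 8 called. The 1 tested red cell marker was called (Alas2 lower), with sums of 48.9 to 97.3 CPM in HLKO and 164 to 214 CPM in Alb livers, and their part was not tested.

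At CT16 and 21% in HLKO against Alb livers 2 of 27 genes were called higher, against 2.06% of all genes, and 3 lower, against 1.51% (median log2 fold change -0.07, against 0.01 over all genes). The count was 2 without Alb A, Alb C or HLKO C, 3 without HLKO A or HLKO B and 8 by DESeq2. Stard4 had 35.7, 33.2 and 28.7 CPM in HLKO livers, against 56.0, 55.4 and 56.3 CPM in Alb livers (-0.78 ± 0.16, adjusted p = 0.00405). Sqle, the squalene epoxidase, had 20.7, 18.9 and 20.2 CPM in HLKO and 56.3, 33.7 and 48.1 CPM in Alb livers (-1.21 ± 0.32, adjusted p = 0.0266). Abcg8 had 58.5, 74.3 and 63.2 CPM in HLKO and 27.8, 44.5 and 28.3 CPM in Alb livers (0.98 ± 0.19, adjusted p = 0.00261). Soat2 was the other higher gene, with 31.6 ± 5.79 CPM in HLKO and 18.3 ± 3.66 CPM in Alb livers (0.79 ± 0.20, adjusted p = 0.0199). No libraries of these 4 genes overlapped between the genotypes. The calls of Stard4 and Abcg8 held without each library in turn, and those of Soat2 and Sqle ended for Soat2 (without Alb A, Alb C or HLKO C, adjusted p = 0.0748 to 0.156) and Sqle (without Alb A, Alb C, HLKO A, HLKO B or HLKO C, adjusted p = 0.0623 to 0.135). Stellate cell and fibroblast marker sums were 296 to 338 CPM in HLKO and 181 to 247 CPM in Alb livers, with 0 of 6 called, and their part was not tested. At CT16 and 6% 0 of 27 genes were called higher, against 4.18% of all genes, and 5 lower, against 5.7% (median log2 fold change -0.11, against 0.01 over all genes). Called genes numbered 1 without Alb A and with the compared groups fitted alone, 2 without HLKO A and 3 without HLKO C. Sqle had 20.8, 43.0 and 26.1 CPM in HLKO and 76.2, 66.2 and 70.6 CPM in Alb livers (-1.21 ± 0.30, adjusted p = 0.0115), with no overlap. Hsd17b7 averaged 29.1 ± 10.9 CPM in HLKO and 57.3 ± 9.26 CPM in Alb livers (-0.95 ± 0.26, adjusted p = 0.0184). Nsdhl averaged 41.1 ± 6.15 CPM in HLKO and 75.7 ± 16.6 CPM in Alb livers (-0.88 ± 0.23, adjusted p = 0.0133), and Sc5d 297 ± 82.5 CPM in HLKO and 455 ± 59.9 CPM in Alb livers (-0.61 ± 0.18, adjusted p = 0.0295). Each of these calls ended without 1 library, for Hsd17b7 (without Alb A, HLKO A or HLKO C, adjusted p = 0.1004 to 0.117, and with the compared groups fitted alone, 0.0889), Nsdhl (without Alb A or HLKO A, adjusted p = 0.0846 to 0.0998, and with the compared groups fitted alone, 0.0648), Sc5d (without Alb A, HLKO A or HLKO B, adjusted p = 0.0679 to 0.220, and with the compared groups fitted alone, 0.142) and Sqle (without HLKO A or HLKO C, adjusted p = 0.0640 to 0.0788). Of the markers at CT16 and 6%, 3 of 7 hepatocyte markers were called (Ttr and Apoa1 higher and Tdo2 lower), with sums of 91790.0 to 95920.0 CPM in HLKO and 74220.0 to 81100.0 CPM in Alb livers. 1 of 6 stellate cell and fibroblast markers was called (Des higher), with sums of 247 to 277 CPM in HLKO and 178 to 234 CPM in Alb livers. Red cell marker sums were 225 to 288 CPM in HLKO and 167 to 186 CPM in Alb livers, with 0 of 1 called, and their part was not tested.

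**Figure D4:**
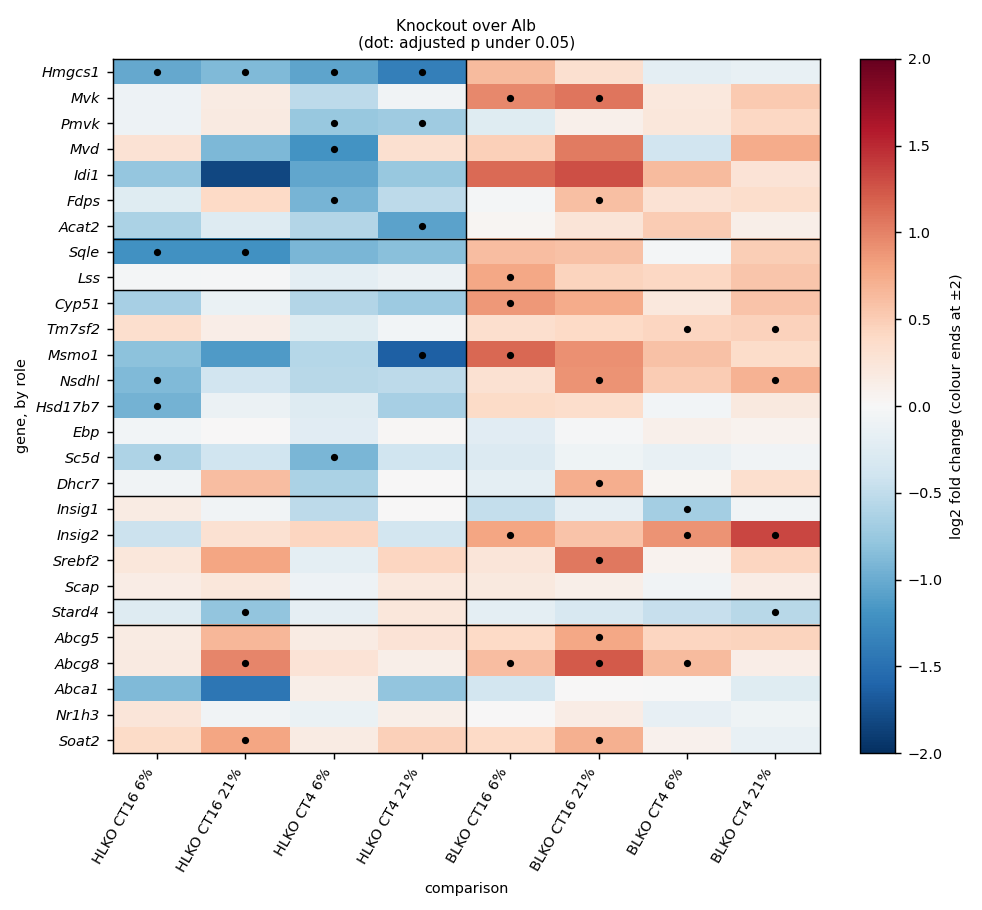
Log2 fold change of knockout over Alb livers (colour, ending at ±2) for the 27 tested genes by role (rows) in the 4 settings of HLKO and the 4 of BLKO (columns), with a dot where the gene was called. Of the 19 dots of HLKO 17 are on genes lower than in Alb, and of the 22 dots of BLKO 20 are on genes higher than in Alb. HLKO and BLKO are set against the same Alb libraries.

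In BLKO against Alb livers 20 of the 108 tests of the 27 genes were called higher, against 3.0% of the 37932 tests of all genes, and 2 lower, against 3.82%. The HLKO and BLKO comparisons share the 3 Alb libraries of each setting, so their values are given side by side and no relation between them is drawn. At CT4 and 21% 3 of 27 genes were called higher, against 3.78% of all genes, and 1 lower, against 3.67% (median log2 fold change 0.33, against 0.01 over all genes). Calls numbered 1 without Alb C, BLKO A or BLKO C and 2 without Alb B. Insig2 had 292, 253 and 305 CPM in BLKO livers, against 115, 129 and 92.0 CPM in Alb livers (1.34 ± 0.20, adjusted p = 2.71e-05). At CT4 and 6% it had 307, 326 and 363 CPM in BLKO and 211, 144 and 179 CPM in Alb livers (0.90 ± 0.20, adjusted p = 0.00427). Each BLKO library was above each Alb library at both oxygen levels, and both calls held without each library in turn. Nsdhl averaged 107 ± 16.9 CPM in BLKO and 66.2 ± 12.1 CPM in Alb livers at 21% (0.70 ± 0.21, adjusted p = 0.0404). Tm7sf2, a sterol reductase, averaged 225 ± 20.4 CPM in BLKO and 164 ± 6.78 CPM in Alb livers (0.46 ± 0.13, adjusted p = 0.0212). Stard4 was the lower gene, with 49.5, 55.6 and 45.3 CPM in BLKO and 76.2, 71.3 and 74.0 CPM in Alb livers (-0.56 ± 0.16, adjusted p = 0.0230), which did not overlap. The calls of these 3 ended for Nsdhl (without Alb B, Alb C, BLKO A or BLKO C, adjusted p = 0.0971 to 0.188, and with no low-count filter, 0.0520), Tm7sf2 (without Alb A, Alb B, Alb C, BLKO A or BLKO C, adjusted p = 0.0520 to 0.114) and Stard4 (without Alb A, Alb C, BLKO A or BLKO C, adjusted p = 0.0546 to 0.120). Of the markers at CT4 and 21%, 1 of 7 hepatocyte markers was called (Alb lower), with sums of 55680.0 to 64070.0 CPM in BLKO and 60960.0 to 78200.0 CPM in Alb livers. Endothelial marker sums were 141 to 162 CPM in BLKO and 111 to 138 CPM in Alb livers, with 0 of 8 called. 1 of 3 bile duct markers was called (Sox9 higher), with sums of 59.0 to 120.5 CPM in BLKO and 52.1 to 74.1 CPM in Alb livers. Red cell marker sums were 137 to 150.4 CPM in BLKO and 165 to 219 CPM in Alb livers, with 0 of 1 called, and their part was not tested.

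At CT4 and 6% in BLKO against Alb livers 3 of 27 genes were called higher, against 2.18% of all genes, and 1 lower, against 2.82% (median log2 fold change 0.10, against -0.0041 over all genes). The calls numbered 1 without Alb A, BLKO A, BLKO B or BLKO C and with the compared groups fitted alone. Beside Insig2, Abcg8 averaged 168 ± 9.99 CPM in BLKO and 107 ± 33.3 CPM in Alb livers (0.64 ± 0.18, adjusted p = 0.0297), and Tm7sf2 averaged 232 ± 8.52 CPM in BLKO and 172 ± 27.7 CPM in Alb livers (0.43 ± 0.13, adjusted p = 0.0415). Insig1 was the lower gene, with 154, 160.3 and 137 CPM in BLKO and 350.3, 204 and 169 CPM in Alb livers (-0.68 ± 0.18, adjusted p = 0.0233). The Insig1 groups were apart by the gap between BLKO B and Alb C. The calls other than that of Insig2 ended for Abcg8 (without Alb A, BLKO A, BLKO B or BLKO C, adjusted p = 0.0547 to 0.206, and with the compared groups fitted alone, 0.131), Insig1 (without Alb A, BLKO A, BLKO B or BLKO C, adjusted p = 0.0510 to 0.362, and with the compared groups fitted alone, 0.159) and Tm7sf2 (without Alb A, Alb C, BLKO A, BLKO B or BLKO C, adjusted p = 0.0565 to 0.233, and with no low-count filter, 0.0532, and with the compared groups fitted alone, 0.154). Of the markers in this setting, 1 of 7 hepatocyte markers was called (Alb lower), with sums of 57740.0 to 60640.0 CPM in BLKO and 68590.0 to 77400.0 CPM in Alb livers. 5 of 8 Kupffer cell markers were called (C1qb, Csf1r, Cd5l, Clec4f and C1qa lower), with sums of 169 to 205 CPM in BLKO and 296 to 547 CPM in Alb livers. 1 of 3 bile duct markers was called (Sox9 higher), with sums of 51.4 to 96.8 CPM in BLKO and 51.4 to 113 CPM in Alb livers. Red cell marker sums were 120.3 to 155 CPM in BLKO and 164 to 214 CPM in Alb livers, with 0 of 1 called, and their part was not tested. Alb, the albumin gene, was called lower in BLKO in all 4 settings.

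At CT16 and 21% in BLKO against Alb livers 8 of 27 genes were called higher, against 2.14% of all genes, and 0 lower, against 3.24% (median log2 fold change 0.58, against 0.00053 over all genes). All BLKO libraries were above all Alb libraries for 16 of 27, against 10.3% of all genes. With some libraries or settings changed, the count was 3 without Alb A or BLKO A, 4 without Alb C and 5 without Alb B. Abcg8 had 103, 66.0 and 64.4 CPM in BLKO livers, against 27.8, 44.5 and 28.3 CPM in Alb livers (1.23 ± 0.19, adjusted p = 5.24e-05). Mvk, the mevalonate kinase, had 69.6, 76.1 and 49.1 CPM in BLKO and 28.2, 23.6 and 39.7 CPM in Alb livers (1.07 ± 0.22, adjusted p = 0.00184). Srebf2 had 14.7, 11.6 and 13.0 CPM in BLKO and 5.84, 7.11 and 6.15 CPM in Alb livers (1.05 ± 0.26, adjusted p = 0.0130). All 3 were without overlap. Nsdhl, Abcg5 and Dhcr7 were called with 0.90 ± 0.22, adjusted p = 0.00907, with 0.78 ± 0.21, adjusted p = 0.0190 and with 0.73 ± 0.21, adjusted p = 0.0337. Soat2 and Fdps were called with 0.71 ± 0.19, adjusted p = 0.0248 and with 0.60 ± 0.18, adjusted p = 0.0498. The calls of Abcg8 and Mvk held without each library in turn, and the others ended for Abcg5 (without Alb A, Alb C or BLKO A, adjusted p = 0.0570 to 0.193, and with the compared groups fitted alone, 0.0523), Dhcr7 (without Alb A, Alb B, BLKO A or BLKO B, adjusted p = 0.0979 to 0.143), Fdps (without Alb A, Alb B, Alb C, BLKO A, BLKO B or BLKO C, adjusted p = 0.0513 to 0.231, and with no low-count filter, 0.0507), Nsdhl (without Alb B, adjusted p = 0.0819), Soat2 (without Alb A, Alb C, BLKO A or BLKO C, adjusted p = 0.0676 to 0.148) and Srebf2 (without Alb A, Alb C or BLKO A, adjusted p = 0.0562 to 0.0675). Of the markers at CT16 and 21%, 1 of 7 hepatocyte markers was called (Alb lower), with sums of 67170.0 to 69370.0 CPM in BLKO and 78530.0 to 99880.0 CPM in Alb livers, and their part was not tested.

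At CT16 and 6% in BLKO against Alb livers 6 of 27 genes were called higher, against 3.9% of all genes, and 0 lower, against 5.55% (median log2 fold change 0.34, against 0.01 over all genes). The count was 2 without Alb B, Alb C or BLKO B. Mvk had 80.6, 110.4 and 79.3 CPM in BLKO livers, against 43.5, 42.7 and 52.5 CPM in Alb livers, with no overlap (0.97 ± 0.21, adjusted p = 0.00202). Msmo1 had 183, 228 and 95.1 CPM in BLKO and 96.3, 69.3 and 62.6 CPM in Alb livers (1.15 ± 0.30, adjusted p = 0.0114). Cyp51, the sterol demethylase, had 34.3, 47.8 and 32.2 CPM in BLKO and 24.6, 19.0 and 18.7 CPM in Alb livers (0.87 ± 0.24, adjusted p = 0.0148). Cyp51 did not overlap, and for Msmo1 the lowest BLKO library lay just under the highest Alb library. Insig2, Lss and Abcg8 were called with 0.78 ± 0.20, adjusted p = 0.00730, with 0.78 ± 0.24, adjusted p = 0.0321 and with 0.62 ± 0.18, adjusted p = 0.0237. The call of Mvk held without each library in turn, and the others ended for Abcg8 (without Alb A, Alb B, BLKO B or BLKO C, adjusted p = 0.0684 to 0.107), Cyp51 (without Alb B, Alb C or BLKO B, adjusted p = 0.0614 to 0.133), Insig2 (without Alb C, adjusted p = 0.0677), Lss (without Alb B, Alb C, BLKO A or BLKO B, adjusted p = 0.0837 to 0.354, and by DESeq2, 0.0700, and with the compared groups fitted alone, 0.194) and Msmo1 (without Alb B, Alb C or BLKO B, adjusted p = 0.0501 to 0.114). The comparisons of HLKO and BLKO with Alb at CT16 and 21%, and that of 6% with 21% in Alb at CT16, all use the 3 Alb CT16 21% libraries, which had the lowest mean Abcg8 of the 12 groups (33.5 ± 9.52 CPM). Among markers at CT16 and 6%, 1 of 7 hepatocyte markers was called (Alb lower), with sums of 54770.0 to 58810.0 CPM in BLKO and 74220.0 to 81100.0 CPM in Alb livers. Red cell marker sums were 94.5 to 133 CPM in BLKO and 167 to 186 CPM in Alb livers, with 0 of 1 called, and their part was not tested.

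**Figure D5:**
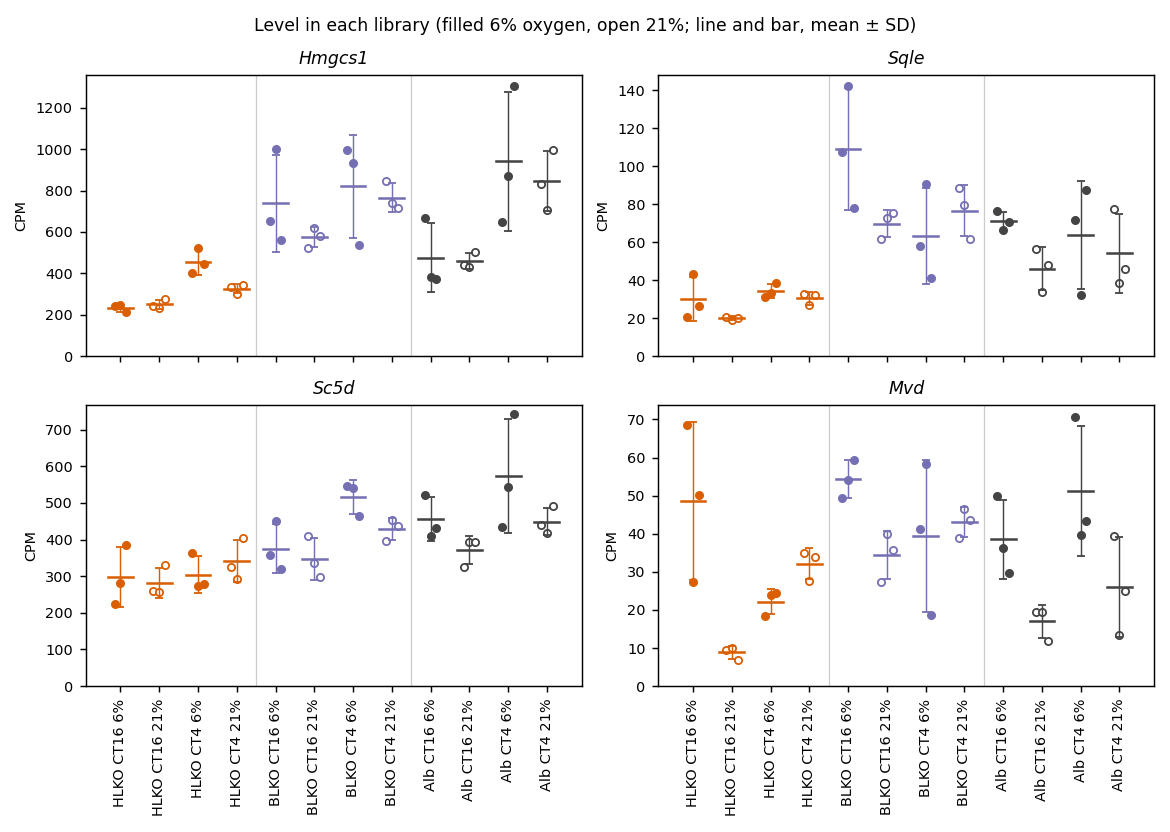
CPM of Hmgcs1, Sqle, Sc5d and Mvd (y axes) in each of the 12 groups (x axis), with 1 point per library, filled for 6% and open for 21% oxygen, and the mean ± SD of 3 libraries as line and bar. The HLKO groups of Hmgcs1 lie between 234 ± 19.2 and 455 ± 61.2 CPM, each below the Alb group of its setting, and Mvd in HLKO is lowest at CT16 21%.

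The comparison of CT16 with CT4 asked how the genes differ between the late and the early exposure within a genotype. In Alb livers Hmgcs1 was lower at CT16 at both oxygen levels, with the values given above (-0.99 ± 0.23, adjusted p = 0.00794 at 6%, and -0.88 ± 0.23, adjusted p = 0.0413 at 21%). Abcg8 was also lower at CT16 at 21% (-1.07 ± 0.19, adjusted p = 0.00223), and Scap at 6% (-0.58 ± 0.14, adjusted p = 0.00982). At 6% 0 of 27 genes were called higher, against 2.24% of all genes, and 2 lower, against 2.17%. This count became 0 without CT4 C or CT16 C and with the compared groups fitted alone, 1 without CT4 B or CT16 B and 4 without CT4 A. At 21% 0 of 27 genes were called higher, against 0.707% of all genes, and 2 lower, against 0.559%. The count was 1 without CT4 C, CT16 A, CT16 B or CT16 C. The median over the 27 was -0.18 at 6% and -0.40 at 21%, against -0.02 and -0.0013 over all genes. The Abcg8 call held without each library in turn. At 6% the calls ended for Hmgcs1 (without CT4 C, CT16 B or CT16 C, adjusted p = 0.0592 to 0.109, and with the compared groups fitted alone, 0.146) and Scap (without CT4 B, CT4 C or CT16 C, adjusted p = 0.0606 to 0.0706, and with the compared groups fitted alone, 0.113), and at 21% for Hmgcs1 (without CT4 A, CT4 C, CT16 A, CT16 B or CT16 C, adjusted p = 0.0937 to 0.175). In Alb at 21% hepatocyte marker sums were 78530.0 to 99880.0 CPM at CT16 and 60960.0 to 78200.0 CPM at CT4, with 0 of 7 called, and their part was not tested.

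HLKO livers had 11 calls between the times. At 21% Stard4 had 35.7, 33.2 and 28.7 CPM at CT16, against 87.6, 73.8 and 98.3 CPM at CT4 (-1.41 ± 0.16, adjusted p = 2.20e-07). Mvd was lower at CT16 as well (-1.84 ± 0.39, adjusted p = 0.00149). Pmvk had 154, 108 and 143 CPM at CT16 and 77.6, 67.8 and 56.1 CPM at CT4 (1.01 ± 0.18, adjusted p = 1.98e-04), and Insig2 was higher at CT16 (1.04 ± 0.20, adjusted p = 6.78e-04). None of the 4 overlapped between the times and all 4 calls held without each library in turn. Over all, 2 of 27 genes were called higher, against 6.57% of all genes, and 2 lower, against 5.29% (median log2 fold change -0.25, against -0.0009 over all genes). Called genes numbered 8 with the compared groups fitted alone. At 6% 4 of 27 genes were called higher, against 4.89% of all genes, and 3 lower, against 4.91% (median log2 fold change -0.14, against -0.02 over all genes). Pmvk had 126, 155 and 158 CPM at CT16 and 87.1, 81.8 and 56.5 CPM at CT4 (0.95 ± 0.18, adjusted p = 5.32e-04), and Fdps had 649, 747 and 708 CPM at CT16 and 379, 354 and 342 CPM at CT4 (0.97 ± 0.19, adjusted p = 8.49e-04). Neither overlapped. Insig1 and Mvd were the other higher genes, with 0.96 ± 0.18, adjusted p = 6.55e-04 and 1.10 ± 0.33, adjusted p = 0.0303. Hmgcs1, Insig2 and Abcg8 were lower, with -0.96 ± 0.23, adjusted p = 0.00620, with -0.73 ± 0.20, adjusted p = 0.0167 and with -0.70 ± 0.18, adjusted p = 0.0123. The calls of Pmvk, Fdps, Insig1 and Hmgcs1 held without each library in turn, and the others ended for Abcg8 (without CT16 C, adjusted p = 0.0764), Insig2 (without CT4 C, CT16 A or CT16 C, adjusted p = 0.0602 to 0.113, and with the compared groups fitted alone, 0.0726) and Mvd (without CT4 A, CT4 B, CT16 A or CT16 C, adjusted p = 0.0629 to 0.186, and with the compared groups fitted alone, 0.0662). Of the markers at 21%, 2 of 7 hepatocyte markers were called (Cyp2e1 and Tdo2 higher), with sums of 90480.0 to 98270.0 CPM at CT16 and 74730.0 to 85220.0 CPM at CT4. Endothelial marker sums were 144 to 191 CPM at CT16 and 118 to 130.2 CPM at CT4, with 0 of 8 called. 1 of 6 stellate cell and fibroblast markers was called (Ecm1 higher), with sums of 296 to 338 CPM at CT16 and 170.0 to 227 CPM at CT4. The 1 tested red cell marker was called (Alas2 higher), with sums of 70.4 to 316 CPM at CT16 and 64.0 to 69.6 CPM at CT4, and their part was not tested. Among markers at 6%, 1 of 7 hepatocyte markers was called (Apoa1 higher), with sums of 91790.0 to 95920.0 CPM at CT16 and 68120.0 to 85860.0 CPM at CT4. 1 of 3 bile duct markers was called (Krt19 higher), with sums of 33.4 to 65.5 CPM at CT16 and 46.5 to 54.1 CPM at CT4. The 1 tested red cell marker was called (Alas2 higher), with sums of 225 to 288 CPM at CT16 and 48.9 to 97.3 CPM at CT4, and their part was not tested.

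BLKO livers had 1 call between the times, at 6%. At 21% neither edgeR nor DESeq2 called any (0 of 27 genes each), and 2 had an unadjusted p under 0.05, while edgeR called 2.19% of all genes. At 6% 0 of 27 genes were called higher, against 1.71% of all genes, and 1 lower, against 1.65%, the 1 being Abcg8 (-0.62 ± 0.18, adjusted p = 0.0435). Calls numbered 0 without CT4 A, CT4 C, CT16 A, CT16 B or CT16 C and with no low-count filter and 2 with the compared groups fitted alone. The Abcg8 call ended without CT4 A, CT4 B, CT4 C, CT16 A, CT16 B or CT16 C, adjusted p = 0.0643 to 0.181, and with no low-count filter, 0.0537. The median over the 27 genes was -0.03 at 6% and -0.19 at 21%, against -0.01 and -0.01 over all genes. In BLKO at 6% endothelial marker sums were 149 to 178 CPM at CT16 and 179 to 196 CPM at CT4, with 0 of 8 called, and their part was not tested. In BLKO at 21%, hepatocyte marker sums were 67170.0 to 69370.0 CPM at CT16 and 55680.0 to 64070.0 CPM at CT4, with 0 of 7 called, and their part was not tested. Differences between genotypes in the change with time were tested directly. At 21% Stard4 had a lower change with time in HLKO than in Alb (-1.01 ± 0.22, adjusted p = 0.0184), as 1 of 27 genes called lower, against 0.443% of all genes, and 0 called higher, against 0.496%. This call ended without Alb CT4 B, Alb CT16 A, HLKO CT4 C or HLKO CT16 C, adjusted p = 0.0514 to 0.0729. The calls numbered 0 without Alb CT4 B, Alb CT16 A, HLKO CT4 C or HLKO CT16 C, 2 without Alb CT16 B or HLKO CT4 B and 3 without HLKO CT16 B and by DESeq2. Abcg8 had a higher change with time in BLKO than in Alb at 21% (1.09 ± 0.27, adjusted p = 0.0413), as 1 of 27 genes called higher, against 0.306% of all genes, and 0 called lower, against 0.443%. This call ended without Alb CT4 A, Alb CT4 C, Alb CT16 A, Alb CT16 C, BLKO CT4 A, BLKO CT4 B, BLKO CT4 C or BLKO CT16 A, adjusted p = 0.0604 to 0.166, and with the compared groups fitted alone, 0.0868. With some libraries or settings changed, the count was 0 without Alb CT4 C, Alb CT16 A, Alb CT16 C, BLKO CT4 A, BLKO CT4 B, BLKO CT4 C or BLKO CT16 A and with the compared groups fitted alone. At 6%, for HLKO, edgeR called 0 of 27 genes, where 7 had an unadjusted p under 0.05, and 1.74% of all genes. In BLKO it called 0 of 27, where 3 had an unadjusted p under 0.05, and 0.749% of all genes. DESeq2 called 2 in HLKO, Mvd and Tm7sf2, and 0 in BLKO. For HLKO at 6% the calls numbered 1 without Alb CT4 A, Alb CT4 C or HLKO CT16 A, 2 by DESeq2 and 3 without HLKO CT16 B.

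Of the other genes followed across all groups, Sqle averaged 29.96 ± 11.6 CPM at CT16 and 6%, 19.9 ± 0.953 CPM at CT16 and 21%, 34.3 ± 3.75 CPM at CT4 and 6% and 30.4 ± 3.28 CPM at CT4 and 21% in HLKO livers (SD, n = 3). It averaged 109 ± 32.2 CPM at CT16 and 6%, 69.7 ± 7.25 CPM at CT16 and 21%, 63.2 ± 25.3 CPM at CT4 and 6% and 76.4 ± 13.5 CPM at CT4 and 21% in BLKO livers and 71.0 ± 5.02 CPM at CT16 and 6%, 46.0 ± 11.5 CPM at CT16 and 21%, 63.8 ± 28.4 CPM at CT4 and 6% and 54.1 ± 20.7 CPM at CT4 and 21% in Alb livers. Each HLKO mean was below the Alb and the BLKO mean of its setting. Stard4 averaged 55.4 ± 6.08 CPM at CT16 and 6%, 32.5 ± 3.56 CPM at CT16 and 21%, 72.0 ± 4.71 CPM at CT4 and 6% and 86.6 ± 12.3 CPM at CT4 and 21% in HLKO livers. It averaged 57.9 ± 4.75 CPM at CT16 and 6%, 45.0 ± 9.23 CPM at CT16 and 21%, 59.3 ± 12.8 CPM at CT4 and 6% and 50.1 ± 5.16 CPM at CT4 and 21% in BLKO livers and 65.8 ± 12.0 CPM at CT16 and 6%, 55.9 ± 0.463 CPM at CT16 and 21%, 81.7 ± 11.8 CPM at CT4 and 6% and 73.8 ± 2.49 CPM at CT4 and 21% in Alb livers. Its lowest group was HLKO CT16 21% and its highest HLKO CT4 21%, a span that lay within 1 genotype at 1 oxygen level.

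Cyp51 averaged 12.8 ± 3.67 CPM at CT16 and 6%, 16.3 ± 4.71 CPM at CT16 and 21%, 19.3 ± 1.93 CPM at CT4 and 6% and 15.1 ± 4.27 CPM at CT4 and 21% in HLKO livers. It averaged 38.1 ± 8.43 CPM at CT16 and 6%, 29.6 ± 1.91 CPM at CT16 and 21%, 34.1 ± 7.04 CPM at CT4 and 6% and 36.7 ± 5.43 CPM at CT4 and 21% in BLKO livers and 20.7 ± 3.33 CPM at CT16 and 6%, 17.4 ± 4.38 CPM at CT16 and 21%, 29.0 ± 5.22 CPM at CT4 and 6% and 24.9 ± 10.2 CPM at CT4 and 21% in Alb livers. The BLKO means were the highest in each setting, with a call against Alb at CT16 and 6% only. Srebf2 averaged 13.4 ± 1.24 CPM at CT16 and 6%, 11.0 ± 2.30 CPM at CT16 and 21%, 13.0 ± 3.96 CPM at CT4 and 6% and 16.4 ± 2.37 CPM at CT4 and 21% in HLKO livers. It averaged 13.6 ± 0.504 CPM at CT16 and 6%, 13.1 ± 1.57 CPM at CT16 and 21%, 15.2 ± 2.51 CPM at CT4 and 6% and 16.1 ± 3.80 CPM at CT4 and 21% in BLKO livers and 11.9 ± 4.87 CPM at CT16 and 6%, 6.37 ± 0.662 CPM at CT16 and 21%, 14.5 ± 1.27 CPM at CT4 and 6% and 12.2 ± 3.02 CPM at CT4 and 21% in Alb livers. The Alb CT16 21% group had the lowest mean of the 12, and both calls of Srebf2 were made against it. Soat2 averaged 36.5 ± 2.62 CPM at CT16 and 6%, 31.6 ± 5.79 CPM at CT16 and 21%, 35.5 ± 6.65 CPM at CT4 and 6% and 42.3 ± 5.19 CPM at CT4 and 21% in HLKO livers. It averaged 37.3 ± 7.45 CPM at CT16 and 6%, 29.6 ± 3.31 CPM at CT16 and 21%, 34.0 ± 2.18 CPM at CT4 and 6% and 27.0 ± 4.39 CPM at CT4 and 21% in BLKO livers and 28.5 ± 5.01 CPM at CT16 and 6%, 18.3 ± 3.66 CPM at CT16 and 21%, 32.1 ± 3.06 CPM at CT4 and 6% and 30.1 ± 7.94 CPM at CT4 and 21% in Alb livers. Its 3 calls, too, were all made against Alb CT16 21%, the lowest group.

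Idi1, Ebp, Abca1 and Nr1h3 were called in 0 of the 20 comparisons of 2 groups by edgeR. DESeq2 called Abca1 for HLKO against Alb at CT16 and 21%, and Ebp for CT16 against CT4 in HLKO at 6%. Abca1 averaged 12.2 ± 3.63 CPM at CT16 and 6%, 5.09 ± 1.41 CPM at CT16 and 21%, 19.1 ± 8.03 CPM at CT4 and 6% and 9.88 ± 1.81 CPM at CT4 and 21% in HLKO livers. It averaged 17.4 ± 8.30 CPM at CT16 and 6%, 14.0 ± 3.72 CPM at CT16 and 21%, 17.9 ± 5.03 CPM at CT4 and 6% and 14.5 ± 2.15 CPM at CT4 and 21% in BLKO livers and 22.6 ± 10.9 CPM at CT16 and 6%, 13.8 ± 5.64 CPM at CT16 and 21%, 17.7 ± 8.68 CPM at CT4 and 6% and 16.97 ± 4.95 CPM at CT4 and 21% in Alb livers. The lowest adjusted p of Abca1 by edgeR was 0.0806, for HLKO against Alb. Idi1 averaged 2.16 ± 1.78 CPM at CT16 and 6%, 1.19 ± 0.0756 CPM at CT16 and 21%, 2.53 ± 0.340 CPM at CT4 and 6% and 3.81 ± 1.25 CPM at CT4 and 21% in HLKO livers. It averaged 8.05 ± 3.55 CPM at CT16 and 6%, 10.5 ± 3.81 CPM at CT16 and 21%, 8.39 ± 5.20 CPM at CT4 and 6% and 8.29 ± 2.39 CPM at CT4 and 21% in BLKO livers and 3.57 ± 1.86 CPM at CT16 and 6%, 4.26 ± 1.61 CPM at CT16 and 21%, 5.22 ± 0.901 CPM at CT4 and 6% and 6.83 ± 4.18 CPM at CT4 and 21% in Alb livers. At these low levels its log2 fold changes of -1.82 to -0.76 for HLKO and 0.27 to 1.29 for BLKO against Alb did not pass. Over all 20 comparisons 23 of the 27 genes were called at least once, against 53.5% of all genes, with 87 calls.

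A second list of sterol genes, 28 of which were tested, covered uptake and genes often regulated with synthesis. Tmem97, a sterol-responsive membrane protein, rose under hypoxia at CT16 in HLKO livers (0.45 ± 0.11, adjusted p = 0.00856) and in Alb livers (0.71 ± 0.11, adjusted p = 3.13e-05). It was higher in BLKO than in Alb livers at 21%, at CT16 (0.52 ± 0.11, adjusted p = 0.00324) and at CT4 (0.61 ± 0.11, adjusted p = 4.74e-04). Of these 4 calls only that in HLKO ended under an alternative, with the compared groups fitted alone, adjusted p = 0.0805. Tmem97 was lower in HLKO than in Alb livers at CT4 and 6% (-0.51 ± 0.11, adjusted p = 0.00675). That call ended without Alb C or HLKO B, and with the compared groups fitted alone, adjusted p = 0.108. Tmem97 was also called higher at CT16 than at CT4 in HLKO at 6% (0.85 ± 0.11) and 21% (0.37 ± 0.11) and in Alb at 6% (0.46 ± 0.11). Only the HLKO call at 6% held under every alternative. Rdh11, a retinol dehydrogenase, was lower in HLKO than in Alb livers at CT4 and 21%, with 16.8, 16.5 and 15.2 CPM in HLKO and 38.8, 45.1 and 36.9 CPM in Alb livers (-1.32 ± 0.29, adjusted p = 0.00550). The groups did not overlap and the call held under every alternative run. Nceh1, a cholesteryl ester hydrolase, was lower in BLKO than in Alb livers at CT16 and 21%, with 2.58, 6.66 and 8.08 CPM in BLKO and 26.5, 13.8 and 17.3 CPM in Alb livers (-1.80 ± 0.34, adjusted p = 7.78e-04), and this call held as well. Among uptake genes Scarb1, the receptor for high-density lipoprotein, rose under hypoxia in Alb livers at CT4, with 327, 403 and 266 CPM at 6% and 252, 180.0 and 196 CPM at 21% (0.66 ± 0.16, adjusted p = 0.00706). Its call ended without 21% B or 6% B, adjusted p = 0.0741 to 0.0920, and with the compared groups fitted alone, 0.0683. Scarb1 was also higher in BLKO than in Alb livers at CT16 and 6% (0.53 ± 0.16, adjusted p = 0.0319). That call ended without Alb A, Alb C or BLKO C. Lrp1, also a lipoprotein receptor, was lower at CT16 than at CT4 in Alb livers at 6% (-0.61 ± 0.15, adjusted p = 0.0144). Its call ended without CT4 B or CT16 A. Both also ended with the compared groups fitted alone, adjusted p = 0.0763 for Scarb1 and 0.147 for Lrp1.

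In HLKO livers Aacs, which activates acetoacetate for lipid synthesis, changed under hypoxia in opposite directions at the 2 times. At CT16 it had 59.2, 63.5 and 235 CPM at 6% and 33.2, 35.3 and 24.3 CPM at 21% (1.95 ± 0.39, adjusted p = 0.00120). At CT4 it had 22.0, 40.4 and 26.8 CPM at 6% and 96.7, 92.8 and 121 CPM at 21% (-1.79 ± 0.38, adjusted p = 0.00139). The groups were apart at both times, with 6% C far above the rest at CT16, and the CT16 call ended without 6% C, adjusted p = 0.0734. The difference between the times, 3.75 ± 0.55, adjusted p = 4.27e-05, held without each library in turn. Lipa, the lysosomal lipase that frees cholesterol from taken-up esters, had 111, 144 and 85.1 CPM at 6% and 174, 196 and 141 CPM at 21% at CT16 (-0.58 ± 0.18, adjusted p = 0.0308). At CT4 it had 165, 134 and 138 CPM at 6% and 93.9, 98.5 and 80.8 CPM at 21% (0.68 ± 0.17, adjusted p = 0.00724). It thus fell at CT16, where 1 library of each group overlapped, and rose at CT4, where none did. The calls ended without 21% A, 21% B, 6% A or 6% C, adjusted p = 0.0802 to 0.184, and with the compared groups fitted alone, 0.110 at CT16, and without 21% C or 6% A, adjusted p = 0.0541 to 0.0543 at CT4, while the difference between the times held (-1.26 ± 0.25, adjusted p = 0.00118). Of the 28 genes, 1 had a called positive difference and 2 a negative one, against 3.81% and 4.83% of all genes. The third of them was Mylip, a ubiquitin ligase for lipoprotein receptors (-1.93 ± 0.63, adjusted p = 0.0491), whose call ended without CT4 21% A, CT4 21% C, CT4 6% A, CT4 6% C, CT16 21% A, CT16 21% B, CT16 6% A or CT16 6% B, adjusted p = 0.0524 to 0.170, and with RLE size factors, 0.0515, and with no low-count filter, 0.0610, and by DESeq2, 0.0505, and with the compared groups fitted alone, 0.0988.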

How the data were processed

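Liver RNA was sequenced in 36 libraries. The count values were deposited by the authors as raw reads per gene symbol, 1 column per library. The submitters' processing notes list mm10, HTSeq, DESeq2, cutadapt and STAR 2.4.2a, without roles or order, and the strand setting and annotation are not given in the sources used here. The signal columns beside them, which the authors deposited as normalized values, are each library's counts times 1 constant and were not used.

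Genes were kept by edgeR's filterByExpr with a count minimum of 10. The quasi-likelihood test of edgeR 4.0.16 was fitted with TMM factors over all 36 libraries, 1 mean per group and no replicate term, so that 12 groups shared 1 estimate of spread, for 20 comparisons of 2 groups and 11 interactions. P-values were two-sided and adjusted by Benjamini-Hochberg over all 9483 genes within a comparison. The SE is the absolute log2 fold change divided by the square root of F. The pipeline was tested on simulated data. Library totals of 1717589 to 5196957 counts limit the precision of genes of few CPM. CPM used TMM-adjusted library totals, and per-kilobase levels used exon lengths of GENCODE M21. The members and lists were chosen with earlier results of these data known. In each comparison up to 6 called genes in each direction were named, and 12 genes were followed in every group. Markers and the second sterol list were named when called, though not every call of that list was given. Sequences came from RefSeq (GRCm38.p6), matched by symbol. Alternatives were DESeq2 1.42.0, RLE size factors, no low-count filter, the compared groups fitted alone, the replicate letter as a block, and leaving out each library in turn. The letters A, B and C did not pair the libraries: in 0 of 20 comparisons were all 3 correlations of same-letter deviations over 0.1. The 3 double-knockout samples were not analysed here.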

Additional observations from a re-analysis of the deposited data

Results flagged for a closer look

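A direct test of the difference between 2 hypoxia responses, or between 2 changes with time, was passed by 7 results of the listed genes. In HLKO livers the hypoxia response at CT16 minus that at CT4 was 2.95 for Mvd, 1.01 for Insig1, 1.02 for Stard4, 0.52 for Nr1h3 and -1.77 for Insig2, on the log2 scale. At 21% oxygen the change with time (CT16 minus CT4) in HLKO minus that in Alb was -1.01 for Stard4, and in BLKO minus that in Alb it was 1.09 for Abcg8. Those of Mvd, Insig1, Stard4 and Insig2 in the hypoxia response of HLKO held under every alternative run, and the other 3 did not. Stard4 enters both tests through the same 3 HLKO CT16 21% and 3 HLKO CT4 21% libraries. Groups held 3 libraries each, too few to test whether 1 library's value of a gene lay apart from those of its group.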

How the results depend on the processing

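Of 94 calls of the listed genes in 31 comparisons, 39 kept their direction and stayed called under every alternative, and 55 ended without at least 1 library. No called direction reversed. RLE size factors ended 0 calls, DESeq2 2, no low-count filter 5 and the compared groups fitted alone 22. The library letters do not pair the libraries, and the fit with a replicate block ended 2 calls, with 1 call in place of 2 for CT16 against CT4 in Alb at 21% (Hmgcs1, adjusted p = 0.0523), the other ended call being that of Nr1h3 for the difference of the HLKO hypoxia response between the times (adjusted p = 0.0558). On the second list the block ended the Mylip call of that difference (adjusted p = 0.0557). Of the second list's 52 calls, 13 held under every alternative.

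Counts of listed genes called moved by over 1.5 times as follows. With the compared groups fitted alone they were 2 for hypoxia in Alb at CT4 (reported 4), 10 for hypoxia in HLKO at CT4 (reported 6), 1 for HLKO against Alb at CT16 6% (reported 5), 1 for BLKO against Alb at CT4 6% (reported 4), 8 for CT16 against CT4 in HLKO at 21% (reported 4), 0 for CT16 against CT4 in Alb at 6% (reported 2), 2 for CT16 against CT4 in BLKO at 6% (reported 1), 0 for BLKO dependence of time at 21% (reported 1). By DESeq2 they were 8 for HLKO against Alb at CT16 21% (reported 5), 1 for HLKO dependence of hypoxia at CT4 (reported 0), 3 for HLKO dependence of time at 21% (reported 1), 2 for HLKO dependence of time at 6% (reported 0). With no low-count filter it was 0 for CT16 against CT4 in BLKO at 6% (reported 1). Leaving out 1 library at a time, the counts ran from 2 to 4 for hypoxia in Alb at CT4, 5 to 7 for hypoxia in Alb at CT16, 2 to 5 for hypoxia in BLKO at CT16, 2 to 7 for HLKO against Alb at CT16 21%, 1 to 4 for BLKO against Alb at CT4 21%, 3 to 7 for BLKO against Alb at CT16 21%. They ran from 3 to 6 for HLKO against Alb at CT4 6%, 1 to 6 for HLKO against Alb at CT16 6%, 1 to 5 for BLKO against Alb at CT4 6%, 2 to 6 for BLKO against Alb at CT16 6%, 1 to 2 for CT16 against CT4 in Alb at 21%, 0 to 4 for CT16 against CT4 in Alb at 6%. They ran from 0 to 1 for CT16 against CT4 in BLKO at 6%, 0 to 1 for HLKO dependence of hypoxia at CT4, 0 to 3 for HLKO dependence of time at 21%, 0 to 1 for BLKO dependence of time at 21%, 0 to 3 for HLKO dependence of time at 6%. The cause was not tested, beyond the fewer libraries that the alternatives without 1 library and on the compared groups alone have by construction. Fdft1, with 0 to 5 counts per library, did not pass the low-count filter. Reads from the stretch it shares with Ctsb cannot be assigned, and why its counts were low was not tested. With 3 libraries a group, a gene that missed the threshold is not shown to be unchanged.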
